A study of Mus musculus with 8 samples.

Results

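Arg1, Nos2 and Ass1 encode 3 enzymes that use or rebuild the amino acid arginine, and their transcripts were compared between liver macrophages of mice on a western diet (WD) and on a normal diet (ND). The enzymes were taken by gene symbol from the authors' deposited table of genes that differed with diet, which holds 2386 genes, so 3 of 2386 are described. Every gene in that table had an unadjusted p below 0.05 and a log2 fold change beyond 1 in size, so the enzymes were in effect selected on the fold changes and p-values described here. These are therefore given as a description, without a test of their own. The WD group held 4 libraries and the ND group 4, all from the common inbred strain C57BL/6, and the series design gives 4 mice per diet. WD and ND are the labels' terms. The sources used here do not give the composition of the diets, the feeding time, age or sex, or how the macrophages were isolated. The table writes the groups as WDV and NDV, with an unexplained letter, and these were taken as the groups labelled WD and ND. Values of single libraries were not analysed here, so each error is a standard error (SE) that the authors deposited.

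Arginine stands at a branch point in macrophages. Arginase-1, the product of Arg1, splits arginine into ornithine and urea, which closes the urea cycle in hepatocytes and marks alternatively activated macrophages in the mouse. Inducible nitric oxide synthase, the product of Nos2, turns the same amino acid into nitric oxide (NO) and citrulline after stimulation with interferon-gamma or bacterial lipopolysaccharide. Argininosuccinate synthase, the product of Ass1, joins citrulline to aspartate. This is the first of the steps that rebuild arginine from citrulline, and it serves both the urea cycle and continued NO synthesis.

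Arg1 was lower under western diet, while Nos2 and Ass1 were higher. Arg1 (ENSMUSG00000019987) lies on the minus strand of chromosome 10 at 24915221 to 24927484 in mm10. It had a mean normalized count of 13578 in the authors' deposited table, the third highest of all listed genes before any correction for gene length. In the authors' deposited table its log2 fold change, WD over ND, was -1.21 ± 0.25 (SE), with an adjusted p of 1.72e-05. That equals a 2.31-fold lower level in WD, with a 95% interval (from the SE and a normal distribution) from 1.64-fold to 3.25-fold.

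Nos2 (ENSMUSG00000020826) lies on the plus strand of chromosome 11 at 78920787 to 78960254. Its mean normalized count was 404 in the authors' deposited table. In the authors' deposited table Nos2 stood at a log2 fold change of 3.26 ± 1.02 (SE), with an adjusted p of 0.00724. The corresponding 9.59-fold higher level in WD had a 95% interval from 2.39-fold to 38.5-fold, so its size was poorly fixed although the whole interval lay above 2-fold.

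Ass1 (ENSMUSG00000076441) lies on the plus strand of chromosome 2 at 31470207 to 31520672, with a mean normalized count of 1009 in the authors' deposited table. In the authors' deposited table its log2 fold change was 1.19 ± 0.16 (SE) and its adjusted p was 1.33e-11. The 2.28-fold higher level in WD had a 95% interval from 1.82-fold to 2.85-fold. Ass1 and Arg1 thus differed with diet by a similar factor in opposite directions, and Ass1 had the smallest p of the 3. Ordered by p among the 17531 genes given an adjusted p, a number recovered from the adjusted p-values, Ass1 ranked 746, Arg1 1704 and Nos2 3456. These 17531 are the tested genes meant below, and genes with an unadjusted p alone lie outside them. Ass1 and Arg1 lay close to the fold limit of the table, at 0.19 and 0.21 log2 units beyond it, and Nos2 lay 2.26 units beyond it. No other gene of the GENCODE annotation overlaps any of the 3.

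At an adjusted p below 0.05, the authors' deposited table called 526 of 17531 tested genes (3.0%) higher in WD and 1464 (8.35%) lower. These shares, here and wherever they are set beside a count, cover genes that also differed by more than 2-fold, since the table holds no others. All 3 enzymes passed that limit, 2 higher and 1 lower. Nothing is read from this count, since membership of the same table chose them.

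A mean per group was computed from each deposited mean count and fold change, under the assumption that the mean covers 4 libraries per diet with equal weight. Arg1 then averaged 8207 normalized counts in WD and 18949 in ND. Nos2 averaged 732 normalized counts in WD and 76.4 in ND. Ass1 averaged 1402 normalized counts in WD and 615 in ND. The computed means carry no error of their own, and the error of each difference is the SE given above.

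Exon lengths differ, with 2.228 kb in Arg1, 4.412 kb in Nos2 and 2.414 kb in Ass1 after merging the exons of all annotated transcripts. Per kb of exon, the level of Arg1 was 22.2 times that of Nos2 in WD and 491 times that of Nos2 in ND. On the same per-kb scale Arg1 was 6.34 times as high as Ass1 in WD and 33.4 times as high in ND. Ass1 per kb was 3.50 times as high as Nos2 in WD and 14.7 times as high in ND. Per kb, Arg1 was thus the most abundant of the 3 transcripts in both diets, with a smaller lead over the others in WD. The change of these ratios between diets restates the fold changes above and carries their errors, of which that of Nos2 is the widest. Each ratio also rests on the mean counts and annotated exon lengths, for which no error is given.

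**Figure D1:**
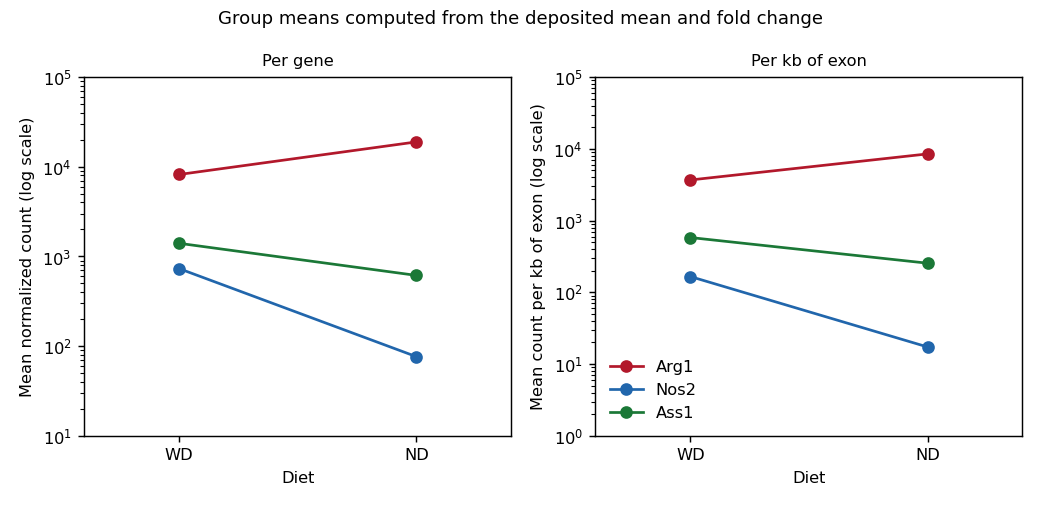
Mean normalized count per diet for Arg1, Nos2 and Ass1 (left, per gene; right, per kb of exon; log scales), computed from the deposited mean count and fold change, without error bars because single libraries were not used. Arg1 lies lower in WD (8207) than in ND (18949), while Nos2 (732 in WD, 76.4 in ND) and Ass1 (1402 in WD, 615 in ND) lie higher in WD. Per kb, Arg1 is highest and Nos2 lowest in both diets.

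The 3 enzymes differed in how exactly their change was measured. Among 217 listed genes with a mean count within 1.5-fold of that of Nos2, the SE of the log2 fold change ran from 0.10 to 0.68 with a median of 0.21 in the authors' deposited table, and Nos2 at 1.02 lay above all of them. Of 803 listed genes with a mean count of at least 100, a limit chosen after the values were seen, no other reached the SE of Nos2. The next largest in the authors' deposited table was 0.75, for Cyp26b1, a retinoic acid degrading enzyme. Ass1 at 0.16 lay below the median SE of 0.19 of 127 genes with similar counts. For Arg1 the same window held 2 genes, with SEs of 0.11 and 0.19 in the authors' deposited table, below its own 0.25.

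If the SEs come from a negative binomial count model with 4 libraries of equal depth per diet, they imply a coefficient of variation between libraries of 99.9% for Nos2, 24.7% for Arg1 and 15.8% for Ass1. The median over the 803 genes was 19.3% and the next highest was 73.2%. Whether 1 library or several carried the Nos2 signal could not be seen, because the table has a single value per gene.

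**Figure D2:**
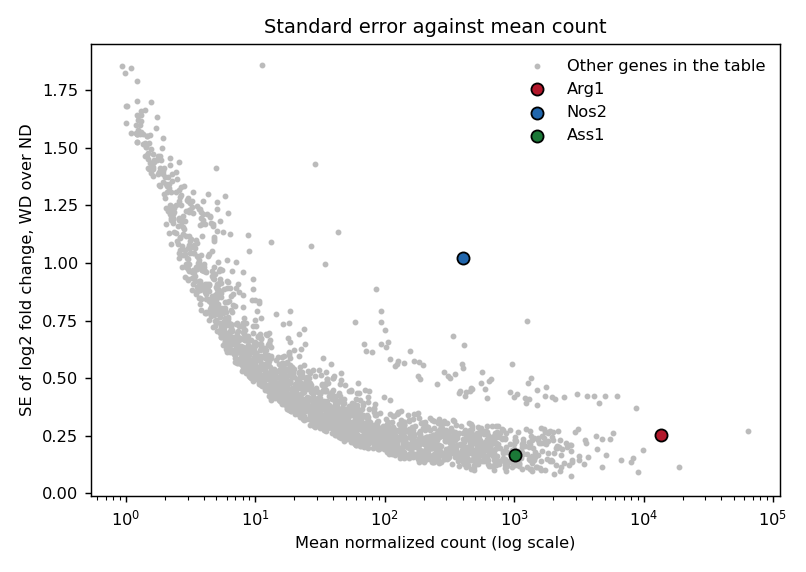
SE of the log2 fold change, WD over ND, against mean normalized count (log scale) for every gene in the authors' deposited table, with the 3 enzymes in colour. Nos2 (SE 1.02 at a mean count of 404) stands above all genes of similar count, whereas Ass1 (0.16) lies within the main band and Arg1 (0.25) near the upper side of the few genes with comparably high counts.

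Of the RefSeq promoter sequences available (GRCm38.p6, the same assembly as mm10), 1 of the 3 enzymes was matched, Ass1. The Ass1 sequence is shown because the promoter of its human counterpart is known for an E-box, the motif CACGTG, bound by MYC and HIF1A in tumour cells. Of the 250 bases before the RefSeq start, 75.6% were G or C, against a median of 52.4% over 32851 mouse promoters. The RefSeq start lies 63 bases inside the gene as GENCODE draws it. The first line gives the 187 bases before both starts, chr2:31470020-31470206, plus strand, with the matches to GGGNNNNNCC that it holds, the form of NF-kB sites, in capitals. The second gives 30 bases between the starts, chr2:31470222-31470251, with CACGTG in capitals.
Ass1 upstream: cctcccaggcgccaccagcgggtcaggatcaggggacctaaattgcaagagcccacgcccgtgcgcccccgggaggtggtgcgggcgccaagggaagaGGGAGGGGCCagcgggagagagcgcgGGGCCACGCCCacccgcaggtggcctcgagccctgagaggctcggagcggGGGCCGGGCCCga
Ass1 E-box: cgcgcccgtcccCACGTGtcccaggttcct

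CACGTG, which reads the same on both strands, occurred once, at -36 from the RefSeq start, and is present in 6.02% of mouse promoter stretches of that length. GGGNNNNNCC was searched on both strands and matched at 6 starting bases, some of them overlapping each other. It is found in 45.8% of promoters, so a match in so G- and C-rich a stretch is common. GGGCGG, the GC box, had 1 match over both strands, overlapping a GGGNNNNNCC match, and is found in 32.7% of promoters. The matches are letters in a sequence, and binding was not measured.

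The other enzymes around arginine were mostly outside the table, which says only that they missed its limits or were not measured. None of the 8 other genes of the urea cycle and arginine synthesis list was listed, among them Asl, which completes the rebuilding of arginine, Arg2, the mitochondrial arginase, and Otc and Cps1, which feed the urea cycle in hepatocytes. Of 10 transporters of arginine and related amino acids, Slc7a9 alone was listed, with a mean count of 1.21 and no adjusted p in the authors' deposited table. Slc7a1 and Slc7a2, the main arginine carriers of many cells including macrophages, were not listed. Of 19 genes of ornithine, polyamine, proline and creatine metabolism, 18 were not listed, among them Odc1, the decarboxylase of the ornithine that arginase makes. Oaz2, an antizyme that restrains ornithine decarboxylase, fell in the authors' deposited table at a log2 fold change of -1.34 ± 0.12 (SE, adjusted p 1.73e-25). This is 1 of 19 genes lower, beside 8.35% of all tested genes.

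Genes around NO synthesis other than Nos2 were lower where they were listed. Of the 12 other genes of this list, the authors' deposited table had 5 that fell, none that rose and 7 unlisted, beside backgrounds of 8.35% lower and 3.0% higher. With Nos2 included, the median log2 fold change of the 6 listed genes was -2.72, and that of all 2386 listed genes was -1.55. Nos3, the endothelial NO synthase, had a log2 fold change of -2.61 ± 0.33 (SE) and a mean count of 225 in the authors' deposited table. Its computed means were 63.6 normalized counts in WD and 387 in ND, against the direction of Nos2. Nostrin, which moves Nos3 away from the membrane, had a log2 fold change of -1.28 ± 0.19 (SE) in the authors' deposited table.

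The other listed genes of this group act on the cofactor or an inhibitor of the synthases. Gchfr, the feedback regulator of the first enzyme of tetrahydrobiopterin synthesis, had the largest fall of the group, at -4.09 ± 0.53 (SE, log2 fold change) and a mean count of 21.6 in the authors' deposited table. That first enzyme, Gch1, was not listed. Ddah1 and Ddah2, which break down methylated arginines that inhibit NO synthases, had log2 fold changes of -2.84 ± 0.36 and -2.87 ± 0.21 (SE) in the authors' deposited table. These 5 falls carried adjusted p-values from 6.40e-39 to 3.77e-10 in the authors' deposited table.

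Part of the genes on the receptor side of NO fell. Of 9 genes for soluble guanylate cyclase, cyclic GMP dependent kinases and phosphodiesterases, the authors' deposited table had 4 that fell, none that rose and 5 unlisted, beside 8.35% of all tested genes lower and 3.0% higher. The log2 fold changes in the authors' deposited table were -1.78 ± 0.50 for Gucy1a1 and -2.42 ± 0.41 for Gucy1b1 (SE), the 2 subunits of the NO receptor. In the authors' deposited table the kinase Prkg1 stood at -2.53 ± 0.40 and the phosphodiesterase Pde5a at -1.37 ± 0.26 (SE, log2 fold changes), and all 4 had mean counts from 21.5 to 38.9. All 14 sinusoidal endothelial markers, Nos3 among them, fell in the same comparison, and the authors' deposited table put their log2 fold changes between -3.59 and -1.49. Their part in the falls of the NO genes was not tested. If the preparation held several cell types, fewer cells of a type and less RNA per cell cannot be told apart.

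**Figure D3:**
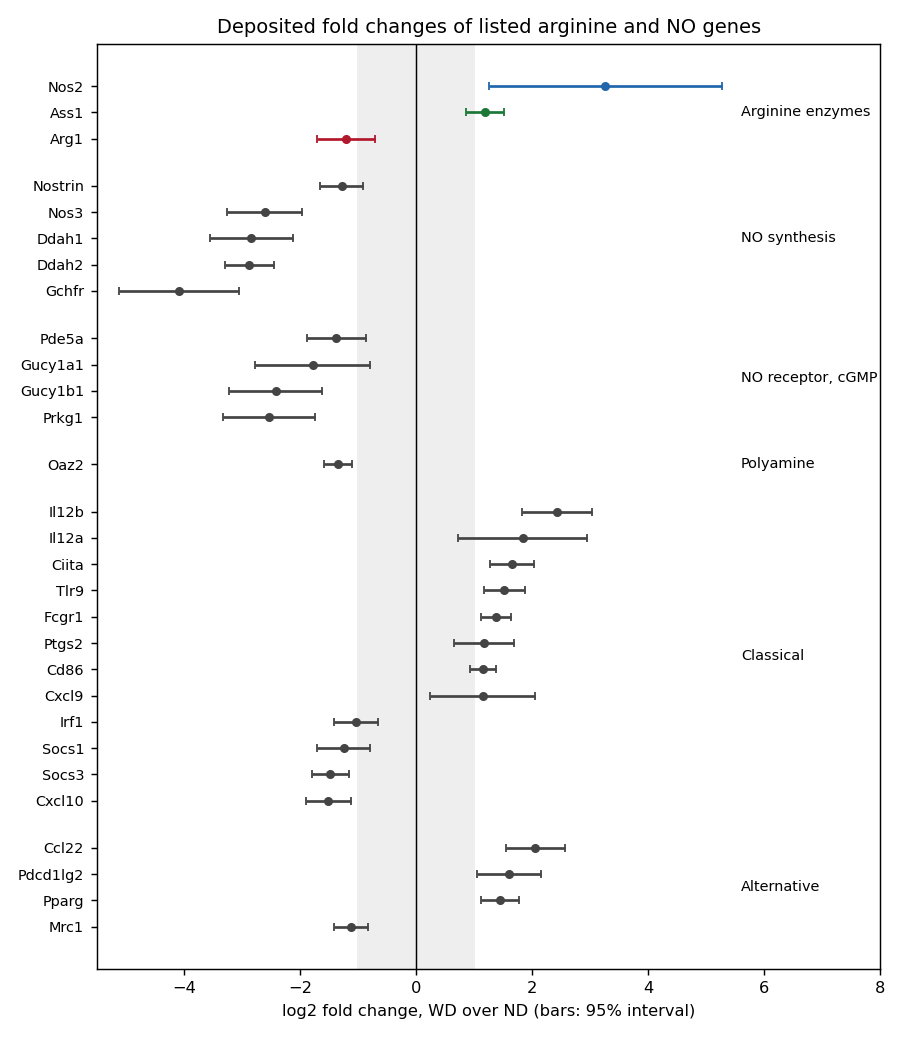
Deposited log2 fold changes, WD over ND, of the 3 enzymes and of the genes with an adjusted p in 5 lists, 1 gene left out (bars, 95% interval; grey band, changes of less than 2-fold, which the table leaves out). Listed genes of NO synthesis other than Nos2 and of the NO receptor lie left of 0, and the classical and alternative activation lists have members on both sides.

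Arg1 and Nos2 are the usual markers of alternative and classical macrophage activation, and the remaining genes of those lists did not split cleanly by direction. Of 22 classical activation genes other than Nos2, the authors' deposited table had 9 that rose, 4 that fell and 9 unlisted, beside 3.0% of all tested genes higher and 8.35% lower. The risers included both subunits of interleukin-12, which drives interferon-gamma production. In the authors' deposited table Il12b had a log2 fold change of 2.43 ± 0.31 and Il12a of 1.83 ± 0.57 (SE). Ciita, the regulator of class II antigen presentation, stood at 1.65 ± 0.19, Tlr9, a receptor of bacterial DNA, at 1.52 ± 0.18, and Fcgr1, an activating Fc receptor, at 1.38 ± 0.13 (log2, SE) in the authors' deposited table. Ptgs2, an inducible prostaglandin synthase, stood at 1.17 ± 0.27 and Cd86, a co-stimulatory molecule, at 1.16 ± 0.12 (log2 fold change, SE) in the authors' deposited table. Cxcl9, a chemokine induced by interferon-gamma, had 1.15 ± 0.46 (log2 fold change, SE) with an adjusted p of 0.0450 in the authors' deposited table.

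The 4 classical activation genes that fell included factors of the interferon response. Irf1, a transcription factor needed for Nos2 induction in mouse macrophages, had a log2 fold change of -1.03 ± 0.19 (SE) in the authors' deposited table. The feedback inhibitors of cytokine signalling Socs1 (-1.25 ± 0.23) and Socs3 (-1.48 ± 0.16) were lower in the authors' deposited table (log2 fold change, SE). Cxcl10, another interferon-induced chemokine, fell at -1.51 ± 0.20 (log2 fold change, SE) in the authors' deposited table, against the direction of Cxcl9. The rise of Cxcl9 did not pass an adjusted p of 0.01. The cytokine genes Ifng, Tnf, Il1b and Il6 and the interferon-gamma receptor genes Ifngr1 and Ifngr2 were not listed.

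Of 22 alternative activation genes other than Arg1, the authors' deposited table had 3 that rose, 1 that fell and 18 unlisted, beside 3.0% of all tested genes higher and 8.35% lower. Mrc1, the mannose receptor, was the one that fell along with Arg1, at -1.12 ± 0.15 (log2 fold change, SE) in the authors' deposited table. Sinusoidal endothelium, the markers of which fell, uses Mrc1 as well. The part of endothelial cells in the fall of Mrc1 was not tested. Ccl22, a chemokine, rose at 2.05 ± 0.26, Pdcd1lg2, a ligand of the inhibitory receptor PD-1, at 1.60 ± 0.28 and Pparg, a lipid-sensing transcription factor, at 1.45 ± 0.17 (log2 fold change, SE) in the authors' deposited table. Retnla and Chil3, which interleukin-4 induces in mouse macrophages as it does Arg1, and Il4ra and Stat6, which carry its signal, were not listed.

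Because hepatocytes hold much Arg1 and Ass1 RNA, other hepatocyte genes were set beside them. Of the 22 other hepatocyte markers, the authors' deposited table had 2 that rose, none that fell, 1 that did not pass and 19 unlisted, beside 3.0% of all tested genes higher. Cyp3a11, a drug-metabolizing enzyme, had a log2 fold change of 3.91 ± 0.71 at a mean count of 23.9, and Apob, the main lipoprotein component, 1.71 ± 0.62 at a mean count of 157 (SE), in the authors' deposited table. Cyp2e1 had 1.69 ± 0.79 (log2 fold change, SE) with an adjusted p of 0.0944 in the authors' deposited table. These 3 were named after their values were seen. Arg1 had the opposite sign to each of the 3 other listed hepatocyte markers, and Ass1 had the same sign. Alb, Cps1 and Otc were not listed, so their levels are unknown here. The part of hepatocyte RNA in either enzyme was not tested.

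Part of the markers of other cells also rose with Nos2 and Ass1. Of 12 recruited monocyte markers in the authors' deposited table, 6 rose, 1 fell and 5 were not listed. Ms4a4c (2.52 ± 0.25), Plac8 (1.76 ± 0.18) and Itga4 (1.28 ± 0.15, log2 fold changes with SE) had the smallest p. The marker that fell was Fn1 (-1.13 ± 0.27, log2 fold change with SE). Its mean count of 64680 was the highest of all listed genes. Of 10 dendritic cell markers, 4 rose and 1 fell, and Zbtb46 (-1.13 ± 0.14), Ccr7 (1.80 ± 0.27) and Cd209a (1.38 ± 0.23, log2 fold changes with SE) had the smallest p in the authors' deposited table. Of 18 T and NK cell markers, 10 rose and none fell, led by p by Klrd1 (1.38 ± 0.21), Gzmb (1.51 ± 0.24) and Ccl5 (1.73 ± 0.29, log2 fold changes with SE) in the authors' deposited table. Beside these counts and those of the next lists, 3.0% of all tested genes were called higher and 8.35% lower, each by more than 2-fold.

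Of 8 mast cell markers, 7 rose in the authors' deposited table, beside 3.0% of all tested genes. Only 4 of the risers had a mean count of at least 10. Kit, which other cells also use, fell at -1.74 ± 0.15 (log2 fold change, SE) with the smallest p. Cma1 (3.38 ± 0.64) and Cpa3 (3.75 ± 0.74), mast cell proteases, followed, with log2 fold changes (SE) in the authors' deposited table of the size of that of Nos2. Of 8 B cell markers, Ighm (1.17 ± 0.24) (log2 fold change, SE) and Ms4a1, whose adjusted p was 0.0196, were higher by the authors' deposited table. Lower with Arg1 were the endothelial markers, led by p by Egfl7 (-3.50 ± 0.20), Tie1 (-3.08 ± 0.23) and Eng (-2.88 ± 0.25, log2 fold changes with SE) in the authors' deposited table. Also lower, beside 8.35% of all tested genes, were 7 of 10 stellate cell and fibroblast markers, led by Bgn (-2.01 ± 0.22), Lrat (-2.19 ± 0.42) and Vipr1 (-1.79 ± 0.35, log2 fold changes with SE) in the authors' deposited table. Epor (-2.01 ± 0.29, log2 fold change with SE) was the single listed gene of 8 erythroid and platelet markers in the authors' deposited table.

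None of 12 Kupffer cell markers and none of 12 neutrophil markers was listed. The label of the cells as macrophages could therefore not be checked against the level of their own markers. Summed levels per diet of whole marker lists could not be had, since unlisted genes have no value. Which cells carried the 3 enzymes was not tested.

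**Figure D4:**
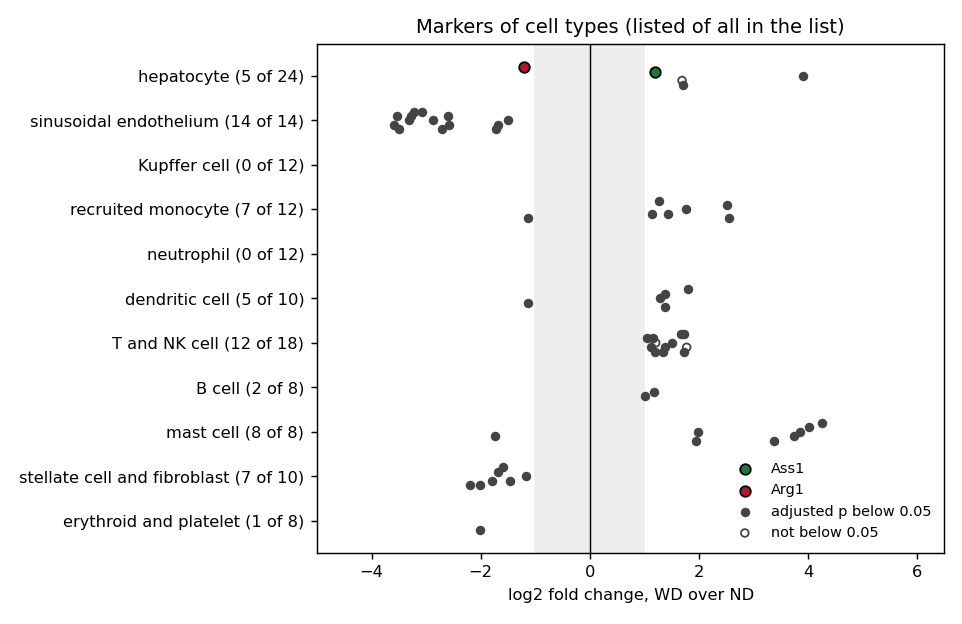
Deposited log2 fold changes, WD over ND, of the listed members of 11 cell type marker lists (points; filled, adjusted p below 0.05; numbers in brackets, listed members of all members). Arg1 and Ass1 lie on opposite sides of 0 within the hepatocyte list, all 14 endothelial markers lie below 0, and the Kupffer cell and neutrophil lists have no point.

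The authors' own term annotation held Nos2 and Ass1, in part under the same terms. Membership of a term is prior annotation and not a result of these data. The authors' deposited table includes Gene Ontology terms among genes with a positive fold change, so Arg1 could not appear in these terms. Of 373 terms in the authors' deposited table, Nos2 was in 20 and Ass1 in 11, with a Benjamini p below 0.05 for 15 of the Nos2 terms and 5 of the Ass1 terms. They shared 3 terms, cellular response to interferon-gamma (16 genes, Benjamini p 3.93e-10), cellular response to lipopolysaccharide (22 genes, 8.17e-09) and circadian rhythm (5 genes, 0.316), in the authors' deposited table. Both enzymes are in the list that was tested, so these p-values are not independent of them.

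Terms could hold listed genes with a positive fold change only, of which 526 of 706 (74.5%) passed an adjusted p of 0.05 in the authors' deposited table, with a median log2 fold change of 1.38 over the 706. Beside this share, all 16 genes of the interferon-gamma term in the authors' deposited table passed an adjusted p of 0.05, and their log2 fold changes ran from 1.01 to 3.26 with a median of 1.52. Nos2 had the highest value of the 16 (3.26 ± 1.02), followed by Il12b (2.43 ± 0.31, log2 fold changes with SE), so its first place was not firm. Ass1 was in the lower part of the range. Of the 22 genes of the lipopolysaccharide term, 21 passed in the authors' deposited table, and their median log2 fold change of 1.35 was close to that of the 706 genes. Nos2 again had the highest value, followed by Il12b, with the same limit. Ass1 was also in positive regulation of nitric oxide biosynthetic process, with 5 genes and a Benjamini p of 0.0535 in the authors' deposited table. The 4 others there were Klrk1, Tlr5, Ptgs2 and Clec7a.

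The genes most like each enzyme were sought among listed protein-coding genes with a mean count within 1.5-fold, by the smallest difference in log2 fold change. Likeness in this single comparison says nothing of shared control. For Ass1 they were Mefv (1.18 ± 0.15), Sla (1.20 ± 0.16) and Sp140 (1.16 ± 0.19, log2 fold changes with SE) of 125 candidates in the authors' deposited table. All 3 differed from Ass1 by less than its SE. For Nos2, of 213 candidates, they were Ly6i (2.89 ± 0.68), Ms4a4c (2.52 ± 0.25) and Ifi209 (2.26 ± 0.25, log2 fold changes with SE) in the authors' deposited table, each below Nos2 and within 1.01 log2 units of it. Ly6i also had the largest SE of the genes with counts like those of Nos2. For Arg1 the window held 2 candidates, the lysosomal protease gene Ctsl (-1.31 ± 0.19) and the selenium transport gene Selenop (-1.58 ± 0.11, log2 fold changes with SE), in the authors' deposited table.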

How the data were processed

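Per the labels' protocols, polyadenylated RNA was fragmented and copied with random hexamers. Per the submitters' processing notes, tools included featureCounts, DESeq, edgeR, StringTie, STAR-Fusion, STAR and HISAT2, with neither roles nor versions, and mm10 was the build. The authors deposited 1 table. Per the file headers it gives each gene a signal (mean normalized count), a log2 fold change with SE, a test score, which equals fold change over SE, and a p-value with its adjusted p-value. The number of tested genes (17531) is the integer for which p times it over adjusted p, a gene's rank, was most often whole (within 0.02, for 91.0% of genes). The adjusted p was empty for 77 listed genes, counted as not passing and not among the 17531. Depth per library is unknown. Group means, the implied variation and 95% intervals were computed with Python 3.11.15, pandas 2.3.3 and numpy 2.4.6. The recovered number of tested genes was checked on simulated data. The group means and the implied variation were also computed on data drawn from the assumed count model. There the means return by algebra, and the SEs came from the formula that the variation inverts, with unequal depths. The match of both was thus largely fixed in advance. It does not show that this model holds for the deposited SEs. The intervals were not checked. All 2386 gene IDs matched GENCODE M21 annotation. The 3 enzymes and the 7 pathway and 11 marker lists were chosen with earlier results of these data known. Genes were named by rule: all listed pathway genes, the 3 listed members of each marker list with the smallest adjusted p, and up to 3 nearest genes per enzyme. Apob, Cyp2e1, Fn1, Cyp26b1, Klrk1, Tlr5 and Clec7a were named outside this rule. For each result 4 alternatives were tried. The values of 1 listed gene are not reported here.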

Additional observations from a re-analysis of the deposited data

How the results depend on the processing

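Direction could not change under the alternatives, which alter limits on the deposited values and not the values. The 3 enzymes were in effect selected on these same values, so passing a stricter limit is no test of them. Their intervals are not corrected for that selection. Arg1 and Ass1 passed an adjusted p below 0.01 or 0.001 and a Bonferroni limit, but their 95% intervals reached inside 2-fold, with bounds nearest 0 of -0.71 and 0.87 on the log2 scale. Nos2 did not pass an adjusted p below 0.001 (its value is 0.00724) or the Bonferroni limit (Bonferroni p of 1), and its interval lay wholly beyond 2-fold. Requiring such an interval left 114 genes higher and 949 lower, against 526 and 1464. Of the pathway genes other than the 3 enzymes it left 7 of 12 higher and 9 of 15 lower, and of the marker genes 13 of 31 higher and 19 of 25 lower. Counts per list moved by more than 1.5 times in 14 of 23 cases under that limit, in 2 at an adjusted p below 0.01 and in 1 at a mean count of at least 10. This last was the count of mast cell markers called higher, 4 against 7. No paired analysis was possible because the labels share no replicate numbers and the table holds no library values. Leaving out a library, another normalization or count model and a pseudocount could not be tried for the same reason.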
